A study of Mus musculus with 2 samples.

Results

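Cadherins and protocadherins are calcium-dependent adhesion proteins of the cell surface. Classical cadherins bind a like molecule on the facing cell through repeated extracellular domains and are tied to actin inside the cell by catenins; type I members carry strong adhesion and type II members are spread in patterns that differ between brain nuclei. The clustered protocadherins (Pcdha, Pcdhb and Pcdhg) give neurons varied surface identities, since many variable first exons, each with a promoter of its own, stand in a row, and in Pcdha and Pcdhg they are spliced to shared constant exons. The non-clustered delta protocadherins fall into a delta-1 and a delta-2 group and act in axon growth and synapse formation.

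The genes were taken by name from the deposited expression table, as every row named Cdh followed by a number or starting with Pcdh. They were 60 of 24229 listed genes, 35 of them non-clustered and 25 in the Pcdha, Pcdhb and Pcdhg clusters (2, 21 and 2 rows). RNA came from the suprachiasmatic nucleus (SCN), the circadian pacemaker of the hypothalamus, of wild type C57BL/6 mice at postnatal day 68. A group of 8 mice was entrained to a short T-cycle (ST), that is a light-dark schedule with a set period, and another 8 to a normal T-cycle (NT), in both cases after 7 days in constant darkness. Entrainment lasted 4 weeks, and a further 5 days in constant darkness came before brains were collected, at circadian time 4 h. Slices 250 µm thick served for dissecting the nucleus under a microscope. The RNA kit is named for nuclear or cytoplasmic preparations, and the labels do not say which fraction was sequenced. There is 1 library per group, made from a number of mice that the labels do not state, and so no p-value was computed: every difference below is between these libraries, and intervals are 95% intervals for counting error of the ratio of ST to NT.

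The ST library held 19476800 counts and the NT library 24790727. Together the 60 genes made up 0.236% of the ST counts and 0.237% of the NT counts. The SCN label was checked against its markers, with Avp, the vasopressin gene, at 656 RPKM in ST and 563 RPKM in NT, and Vip at 168 RPKM in ST and 197 RPKM in NT. RPKM, the authors' reads scaled by gene length and library size, is used for levels between genes. Ratios were taken on counts scaled by size factors, with a pseudocount of 0.5 on the log2 scale only, for genes with a mean scaled count of at least 50. That minimum was met by 52 of the 60 genes.

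Of the 35 non-clustered genes, 22 were matched by symbol to a promoter window in RefSeq (build GRCm38.p6), from 250 bases before to 50 after the transcription start. Because the title of the series names DNA methylation, which in mammals sits mainly on CpG dinucleotides, 4 windows are shown with CpG in capitals. They are those of Pcdh10, the most abundant of the matched genes, Cdh20, which was lower in the ST library, and Cdh22 and Cdh10, which hold the most and the fewest CpG. They lie at chr3:45378148-45378447 (plus strand), chr1:104768270-104768569 (plus strand), chr2:165234688-165234987 (minus strand) and chr15:18820079-18820378 (plus strand), and are written 5′ to 3′.
Pcdh10: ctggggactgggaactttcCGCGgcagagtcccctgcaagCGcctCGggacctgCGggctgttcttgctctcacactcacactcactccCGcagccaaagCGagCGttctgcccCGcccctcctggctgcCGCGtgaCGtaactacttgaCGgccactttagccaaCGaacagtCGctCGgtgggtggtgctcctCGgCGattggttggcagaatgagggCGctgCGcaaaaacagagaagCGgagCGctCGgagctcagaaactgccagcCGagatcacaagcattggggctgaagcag
Cdh20: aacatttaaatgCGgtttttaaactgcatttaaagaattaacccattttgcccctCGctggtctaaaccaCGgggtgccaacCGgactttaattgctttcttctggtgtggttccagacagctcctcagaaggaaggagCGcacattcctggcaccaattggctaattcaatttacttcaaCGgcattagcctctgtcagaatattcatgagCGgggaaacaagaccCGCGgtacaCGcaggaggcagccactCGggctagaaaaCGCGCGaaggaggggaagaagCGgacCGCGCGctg
Cdh22: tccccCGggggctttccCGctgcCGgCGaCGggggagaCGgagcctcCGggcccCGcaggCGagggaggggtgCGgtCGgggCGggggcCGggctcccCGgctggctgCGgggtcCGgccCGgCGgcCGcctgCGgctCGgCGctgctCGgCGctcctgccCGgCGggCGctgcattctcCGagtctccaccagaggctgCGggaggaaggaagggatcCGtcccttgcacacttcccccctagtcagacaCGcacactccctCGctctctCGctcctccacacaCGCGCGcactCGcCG
Cdh10: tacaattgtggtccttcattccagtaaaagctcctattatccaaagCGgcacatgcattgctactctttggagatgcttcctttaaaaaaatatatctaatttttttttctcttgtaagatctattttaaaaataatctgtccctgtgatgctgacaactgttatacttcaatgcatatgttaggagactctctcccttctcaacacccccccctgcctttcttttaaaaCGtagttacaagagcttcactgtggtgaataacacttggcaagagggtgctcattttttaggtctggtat
The windows hold 24 CpG for Pcdh10, 18 for Cdh20, 38 for Cdh22 and 2 for Cdh10. Over the 22 genes the median was 13 CpG (first window of each gene), equal to the median of 13 over 17492 protein-coding genes with a window, whose quartiles were 3.75 and 24. The E-box CACGTG, which reads the same on both strands and is bound by clock transcription factors, was found in 1 of the 22 windows, that of Cdh15, against 7.90% of all protein-coding windows. Expression data do not measure methylation, and a match in these letters is a description only.

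Levels of the non-clustered genes spanned a wide range and mostly differed little between the libraries. Cdh2, N-cadherin, the main classical cadherin of neural tissue, had 27.8 RPKM in ST and 26.3 RPKM in NT. Pcdh10, a delta-2 protocadherin also called OL-protocadherin, had 26.8 RPKM in ST and 27.4 RPKM in NT. Pcdh9, a delta-1 protocadherin, had 20.3 RPKM in ST and 23.2 RPKM in NT. These were the 3 most abundant non-clustered genes per length in both libraries. Below them lay Pcdh17, which acts in presynaptic assembly, with 16.9 RPKM in ST and 17.0 RPKM in NT, and then Pcdh8, Pcdh1 and Pcdh19 between 13.6 and 14.6 RPKM in both libraries, too close together to be ranked. Cdh22, the most abundant type II cadherin here, had 12.7 RPKM in ST and 11.999 RPKM in NT, and Cdh13, T-cadherin, which is held by a lipid anchor and has no cytoplasmic tail, had 11.6 RPKM in ST and 11.8 RPKM in NT.

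**Figure D1:**
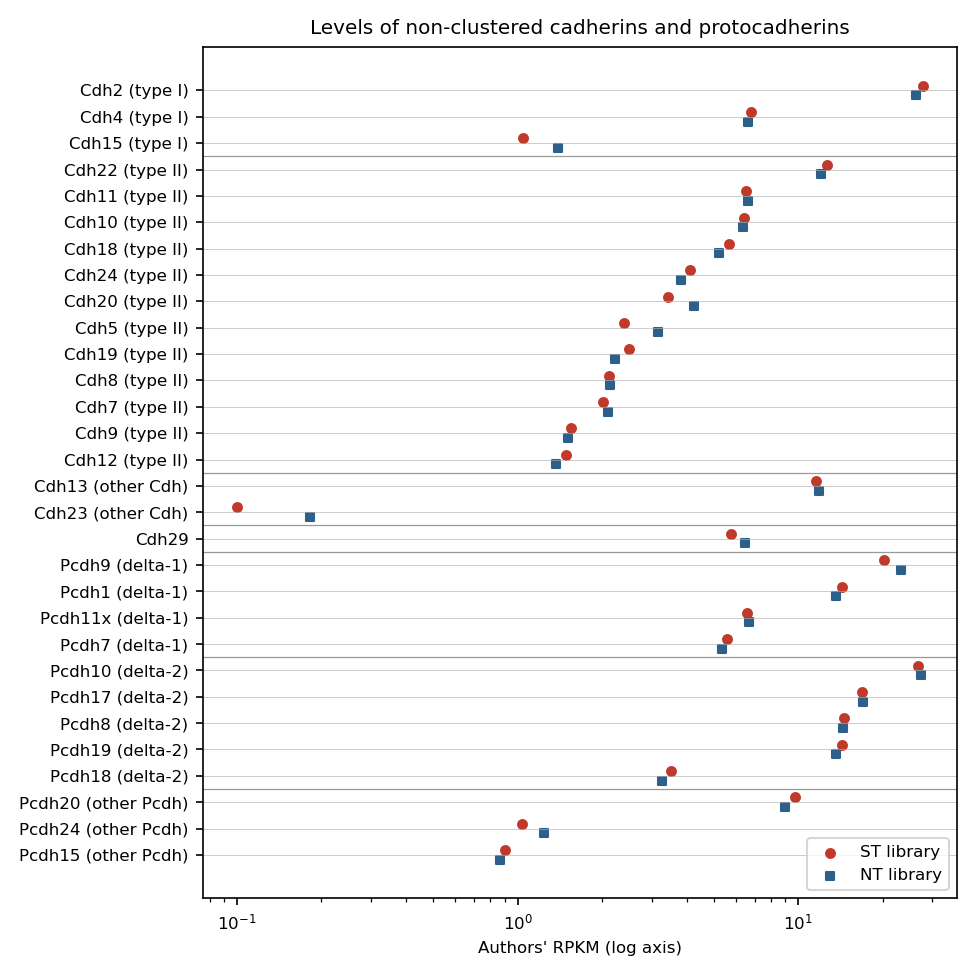
Authors' RPKM (log axis) of the 30 non-clustered genes with a mean scaled count of at least 50, in the ST library (circles) and the NT library (squares), 1 library each. Cdh2 and Pcdh10 lie highest among them, near 27 RPKM, and Cdh23 lowest, at 0.100 RPKM in ST and 0.182 RPKM in NT.

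Cdh1, E-cadherin of epithelia, Cdh17, a cadherin of intestine, Cdh26 and Pcdh12, a protocadherin of endothelium, were close to absent. Cdh1 had 3 counts in ST and 22 in NT, a ratio of 0.172 (interval 0.033 to 0.573), the lowest ratio of all 60 genes. Cdh17 had 4 counts in each library, Cdh26 had 5 in ST and 9 in NT, and Pcdh12 had 5 in ST and 10 in NT. Cdh6 was just below the minimum with 44 counts in ST and 46 in NT. The last 3 genes under the minimum were Pcdhb1 (8 counts in ST, 3 in NT), Pcdhb2 (36 in ST, 35 in NT) and Pcdhb21 (18 in ST, 27 in NT). Apart from Cdh1, the intervals of these 8 genes held 1.

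Most cadherins and protocadherins were near equal in the libraries. Among the 52 measured genes, 26 had a log2 ratio above 0 and 26 below (50.9% of all measured genes were below), with a median of 0.00, as over all 14343 measured genes (median 0.00). Of the 52, 0 were 2-fold higher in ST (0.0209% of all measured genes were) and 0 were 2-fold lower (0.23%). At 1.5-fold, 0 were higher (0.314% of all measured genes) and 1 was lower (0.865%). At a size rule of 1.2-fold, 3 were higher in ST (5.77%), against 3.35% of all measured genes, and 8 were lower (15.4%), against 6.11%. Many of those 11 rest on few counts. Whatever the size of the ratio, the interval lay above 1 for 2 of the 52 (3.85%, against 7.79% of all measured genes). Those 2, Cdh2 and Pcdha6, were within 1.2-fold. The interval lay below 1 for 6 (11.5%, against 10.2% of all measured genes), of which Pcdh9 and Pcdhga11 were within 1.2-fold. Past 1.2-fold and with the interval clear of 1 were 0 on the higher side (1.72% of all measured genes) and 4 on the lower (3.66%), namely Cdh5, Cdh20, Cdh23 and Pcdhb9. These counts include a pair of genes that met the minimum only through the library where they were high, Cdh23 through NT (also the 1 gene past 1.5-fold) and Pcdhb6 through ST (one of the 3 higher; scaled counts of 62.9 in ST and 49.8 in NT), and so they are no support for a difference. The median size of the log2 ratio, taken without sign, was 0.08 for the members and 0.08 for all measured genes.

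**Figure D2:**
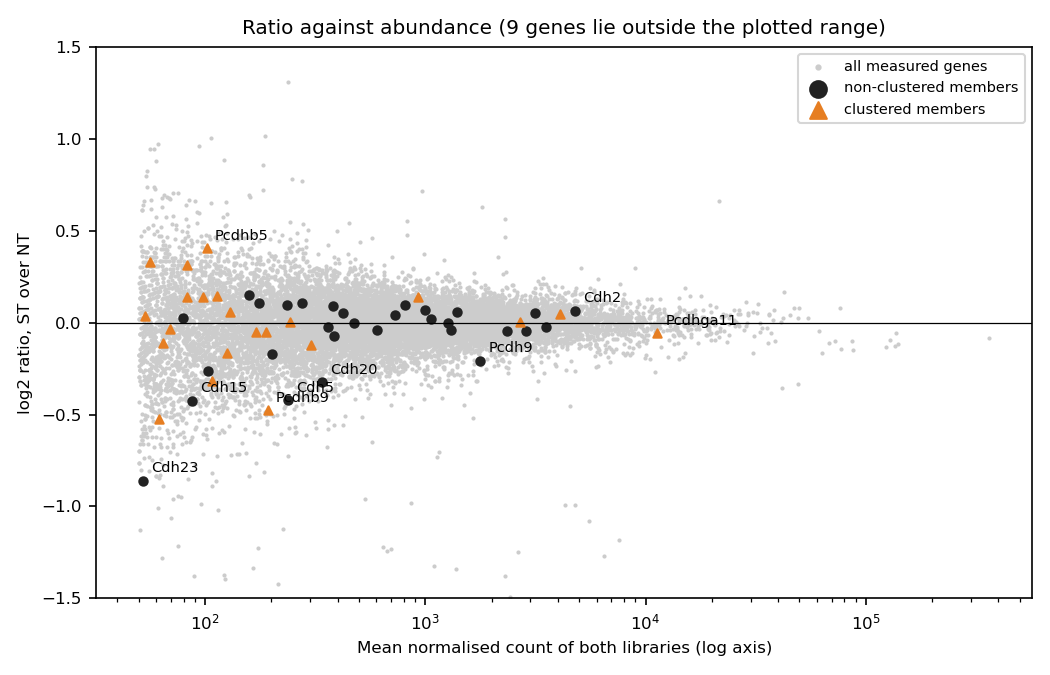
Log2 ratio of ST to NT against the mean scaled count of both libraries (log axis), with 1 point per gene, for all 14343 measured genes (grey), non-clustered members (black) and clustered members (orange). Members with high counts lie close to 0, and those further from 0, such as Cdh23, Cdh15 and Pcdhb5, have few counts; 9 genes lie outside the plotted range of 1.5 either way.

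Type I cadherins were led by Cdh2. It had 4353 counts in ST and 5252 in NT, a ratio of 1.05 after scaling (interval 1.005 to 1.09), an interval just above 1 for a difference of 0.06 on the log2 scale. Cdh4, R-cadherin of retina and brain, was at 1.01 from 952 counts in ST and 1185 in NT (0.930 to 1.11). Cdh15, M-cadherin, known from muscle and from granule cells of the cerebellum, had 66 counts in ST and 112 in NT, a ratio of 0.744 (0.540 to 1.02). Cdh15 was past 1.2-fold lower but its interval held 1.

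Of the 12 measured type II cadherins, 2 (16.7%) were past 1.2-fold lower with an interval below 1, against 3.66% of all measured genes. Cdh5, VE-cadherin of endothelial junctions, had 2.38 RPKM in ST and 3.17 RPKM in NT, from 181 counts in ST and 306 in NT. Its ratio was 0.747 (interval 0.618 to 0.900), with a log2 ratio of -0.42. Cdh20 had 3.44 RPKM in ST and 4.27 RPKM in NT, from 268 counts in ST and 423 in NT, a ratio of 0.7996 (0.684 to 0.934). The counts of both genes are whole numbers, so no division of reads with another gene shows in them. The other 10 measured type II genes had intervals that held 1: Cdh7 (0.952-fold), Cdh11 (0.973), Cdh8 (0.984), Cdh10 (0.9998), Cdh9 (1.02), Cdh22 (1.05), Cdh24 (1.07), Cdh18 (1.08), Cdh12 (1.08) and Cdh19 (1.11). Over all 12, the median log2 ratio was 0.01.

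Neighbours of Cdh20 had ratios of their own, whose intervals overlap that of Cdh20. Cdh20, Cdh7 and Cdh19 lie within 6.21 Mb of chromosome 1, where Cdh19 had a ratio of 1.11 (0.885 to 1.40) and Cdh7 0.952 (0.824 to 1.10). Cdh6, Cdh9, Cdh10, Cdh12 and Cdh18, all type II, lie within 10.4 Mb of chromosome 15, with ratios from 0.9998 to 1.21 whose intervals all held 1. In the authors' coordinates (mm9), Cdh20 (ENSMUSG00000050840) lies on chromosome 1 from 106665106 to 106892058, Cdh5 (ENSMUSG00000031871) on chromosome 8 from 106625599 to 106668401, and Pcdh9 (ENSMUSG00000055421) on chromosome 14 from 93414731 to 94287951.

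Among the other genes named Cdh, Cdh23, which with Pcdh15 forms the tip links of inner ear hair cells, had 33 counts in ST and 76 in NT, a ratio of 0.548 (interval 0.353 to 0.835). Its level was under 0.2 RPKM in both libraries. With scaled counts of 37.1 in ST and 67.6 in NT, it reached the minimum mean of 50 only through the NT library, where it was high, so its ratio is given as a description. Its partner Pcdh15 had 384 counts in ST and 467 in NT, a ratio of 1.04 (0.904 to 1.19). The intervals of the pair did not overlap, but this is no support for a difference, because Cdh23 was let in through the library where it was high. Cdh13 had 2507 counts in ST and 3268 in NT, a ratio of 0.968 (0.919 to 1.02). The row named Cdh29, on chromosome 9, had 168 counts in ST and 239 in NT, a ratio of 0.887 (0.724 to 1.09); its identity is uncertain, since the GENCODE vM1 annotation names its Ensembl identifier Cdhr4, the table lists a further row as Cdhr4, and it gives the neighbouring gene Uba7 the same description.

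**Figure D3:**
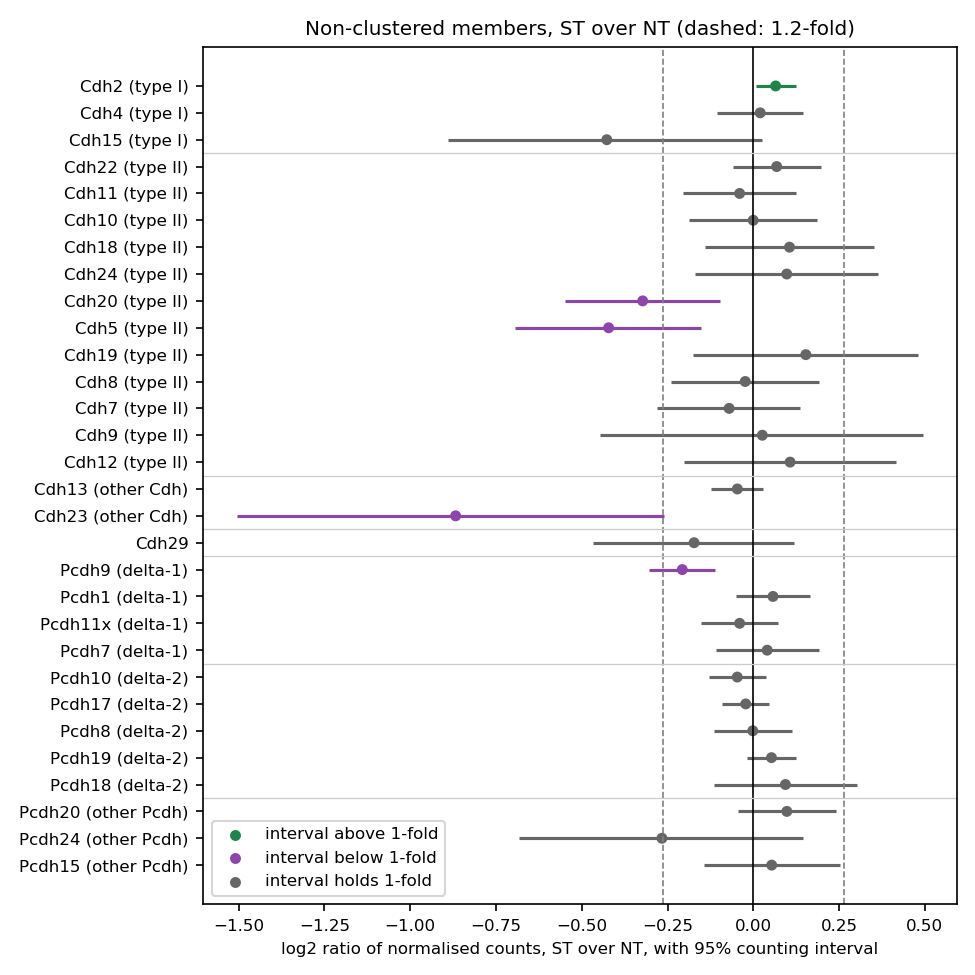
Log2 ratio of normalised counts of ST to NT for the 30 measured non-clustered genes, taken without a pseudocount, with 95% counting intervals, grouped by class; dashed lines mark 1.2-fold. The intervals of Cdh5, Cdh20, Cdh23 and Pcdh9 lie below 1-fold and that of Cdh2 above it, while the other 25 hold 1-fold.

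Delta-1 protocadherins, which are known to differ from delta-2 in their cytoplasmic motifs, had intervals that held 1 but for 1 gene. Pcdh9 had 1464 counts in ST and 2133 in NT, a ratio of 0.866 (interval 0.810 to 0.926) that stayed within 1.2-fold. Pcdh1 had 1258 counts in ST and 1526 in NT, a ratio of 1.04 (0.965 to 1.12). Pcdh11x, on the X chromosome, was at 0.973 (0.900 to 1.05) and Pcdh7 at 1.03 (0.927 to 1.14). Pcdh9 was thus the only delta-1 gene of 4 whose interval did not hold 1. Summed over the 4 genes, 4535 counts in ST and 5965 in NT gave a ratio of 0.960 (interval 0.923 to 0.997), below 1. That interval holds 0.992, the ratio of the summed counts of all listed genes.

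All 5 delta-2 protocadherins had intervals that held 1, and their summed counts of 9517 in ST and 12003 in NT gave a ratio of 1.001 (interval 0.974 to 1.03). Pcdh10 was at 0.968 (0.914 to 1.03), Pcdh17 at 0.985 (0.939 to 1.03) and Pcdh8 at 0.999 (0.923 to 1.08). Pcdh8, also called arcadlin, is known as a gene induced by synaptic activity, and in these libraries it had 1127 counts in ST and 1424 in NT. Pcdh19, an X-linked gene whose loss in humans is tied to epilepsy, was at 1.04 (0.987 to 1.09), and Pcdh18 at 1.07 (0.923 to 1.23). Of the remaining protocadherins, Pcdh20 was at 1.07 (0.969 to 1.18) with 741 counts in ST and 874 in NT. Pcdh24, named Cdhr2 in GENCODE vM1 and known from intestinal brush border, was at 0.831 (0.622 to 1.11) with 83 counts in ST and 126 in NT.

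The clusters were read as loci first, because the table does not list isoforms of Pcdha and Pcdhg one by one. All clusters lie on chromosome 18. The row Pcdha11 (ENSMUSG00000007440) covers 37089939 to 37347311, holds 10 transcripts with 10 different starts in GENCODE vM1, and has a length of 24.7 kb by its RPKM, so it covers many isoforms and not Pcdha11 alone. Likewise the row Pcdhga11 (ENSMUSG00000023036), which GENCODE vM1 names Pcdhgc5, covers 37833989 to 38001527 with 10 transcripts and a length of 26.4 kb. The rows Pcdha6 and Pcdhga2 have lengths of 5.36 kb and 4.68 kb and end within 3 bases of them or at the same base, where the constant exons lie. No value of a single Pcdha or Pcdhg isoform, the C-type isoforms among them, can be read from these 4 rows.

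Summed over rows, all 3 clusters were close to equal. Pcdhg, the most abundant, had 13550 counts in ST and 17452 in NT, a ratio of 0.980 (interval 0.958 to 1.002). Pcdha had 3249 counts in ST and 3993 in NT, a ratio of 1.03 (0.980 to 1.08). Pcdhb, whose genes are single exons with no constant part, had 2027 counts in ST and 2626 in NT, a ratio of 0.974 (0.919 to 1.03). By row, Pcdhga2 had 40.6 RPKM in ST and 38.9 RPKM in NT and Pcdhga11 had 19.2 RPKM in ST and 19.7 RPKM in NT. Pcdha6 had 8.25 RPKM in ST and 7.42 RPKM in NT, and Pcdha11 had 4.97 RPKM in ST and 4.92 RPKM in NT. Pcdhga11 had an interval below 1 (0.962-fold, 0.937 to 0.987) and Pcdha6 one above 1 (1.10-fold, 1.01 to 1.21), but both rows share reads with the other row of their locus.

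Fractional counts, which arise where reads are divided between features, were traced to their partners. A count was fractional in either library for 13 of the 25 clustered rows (52.0%), for 7 of the 35 non-clustered genes (20%) and for 45.2% of all listed genes. For 19 of these 20 members, a set of 2 to 4 rows was found whose fractional counts add up to whole numbers in both libraries (tolerance 1e-04), and each set gives a ratio free of the division. Neighbouring rows were searched first, and then pairs with any listed row. The 2 Pcdha rows and a pair of clone-named loci add up to 3255 counts in ST and 3996 in NT (ratio 1.03, interval 0.981 to 1.08). The 2 Pcdhg rows and the clone-named locus AC020971.1 add up to 13846 in ST and 17846 in NT (ratio 0.979, 0.958 to 1.001). None of the 12 sets joined rows of different clusters. For Cdh4, Cdh22, Pcdh8, Pcdh15 and Pcdh19 the partner was a single clone-named locus, and their summed ratios lay from 0.995 to 1.05. For Cdh29 it was Uba7 (243 counts in ST and 346 in NT together), and for Cdh11 no set was found.

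Pcdhb genes were low and uneven in level. Pcdhb17 led with 4.05 RPKM in ST and 4.36 RPKM in NT, followed by Pcdhb14 with 3.55 RPKM in ST and 3.51 RPKM in NT, and Pcdhb9 with 2.41 RPKM in ST and 3.32 RPKM in NT. The lowest was Pcdhb1, the first gene of the row, with 0.159 RPKM in ST and 0.0468 RPKM in NT. Pcdhb17 took 12.7% of the counts of the 21 genes in ST and 13.5% in NT, and Pcdhb14 took 10.7% in ST and 10.4% in NT. A neighbouring row described as Pcdhb20 but named AC020967.1, and so not counted among the members, had 3.17 RPKM in ST and 3.002 RPKM in NT.

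Of 18 measured Pcdhb genes, 9 had a log2 ratio above 0 and 9 below, with a median of -0.02. Pcdhb9 had 143 counts in ST and 251 in NT, a ratio of 0.719 (interval 0.581 to 0.886), the only interval of the 18 that did not hold 1. It shares reads with Pcdhb7, which was at 0.964 (0.774 to 1.1998), and the pair together had 292 counts in ST and 446 in NT, a ratio of 0.826 (0.711 to 0.960). Chosen after their values were seen, the other genes past 1.2-fold were Pcdhb5, Pcdhb6 and Pcdhb19 on the higher side and Pcdhb11 and Pcdhb16 on the lower. With Pcdhb9, that made 3 of 18 higher (16.7%, against 3.35% of all measured genes) and 3 lower (16.7%, against 6.11%). Pcdhb11 (0.693, 0.470 to 1.01) shares reads with Pcdhb12, and their sum of 151 counts in ST and 203 in NT had a ratio of 0.939 (0.755 to 1.16). Pcdhb6 with Pcdhb8 and Pcdhb10 summed to 1.09 (0.899 to 1.32), and Pcdhb17 with Pcdhb19 and AC020967.1 to 1.002 (0.888 to 1.13). With whole counts of its own, Pcdhb5 had 103 counts in ST and 98 in NT, a ratio of 1.33 (0.996 to 1.77), and Pcdhb16 had 85 in ST and 134 in NT, a ratio of 0.801 (0.603 to 1.06). With rows that share reads summed (a setting chosen after seeing the data), 1 clustered entry was past 1.2-fold on the higher side and 2 on the lower.

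**Figure D4:**
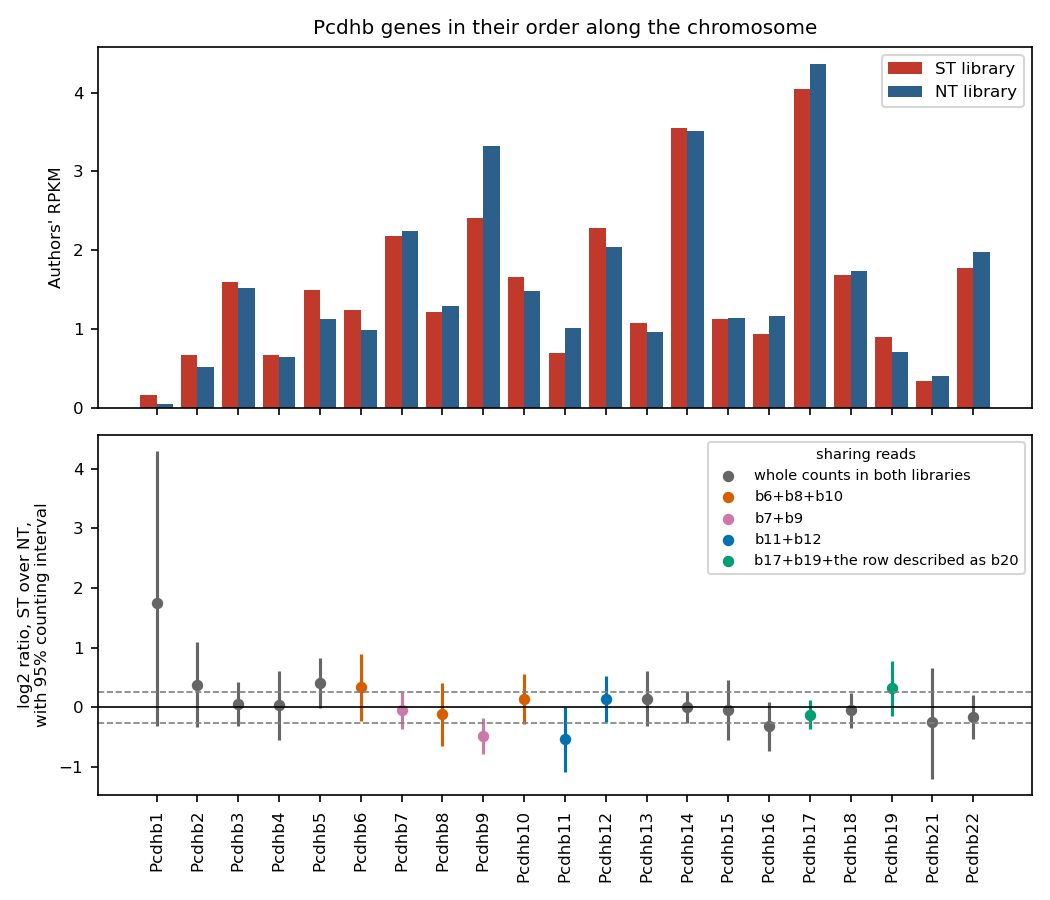
Authors' RPKM (top, ST bars left of NT bars) and log2 ratio of ST to NT without a pseudocount, with 95% counting intervals (bottom) for the 21 Pcdhb genes in their order along chromosome 18; colours mark genes that share reads and dashed lines mark 1.2-fold. Only the interval of Pcdhb9 does not reach 0, and levels vary from under 0.2 to over 4 RPKM along the row.

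Proteins that act with cadherins had 1 gene past 1.2-fold among those measured, though some summed counts had intervals clear of 1. Of 10 measured catenins and related armadillo proteins, which link cadherins to actin, 0 were past 1.2-fold either way (9.46% of all measured genes were), and Ctnnb1, beta-catenin, the most abundant, had 137 RPKM in ST and 138 RPKM in NT. The WAVE complex drives actin branching and is bound by delta-2 protocadherins; 0 of its 8 measured genes were past 1.2-fold, with Cyfip2 at 87.7 RPKM in ST and 88.1 RPKM in NT. All 8 had log2 ratios below 0 (median -0.04), and their summed counts gave a ratio of 0.977 (interval 0.962 to 0.992). Of 11 kinases, phosphatases and proteases that act on these proteins, 0 were past it, with a median log2 ratio of -0.04 and a summed ratio of 0.974 (0.953 to 0.996). Of 14 measured factors that set the choice or silencing of clustered promoters, again 0 were past it, with a median of 0.01 and the cohesin subunit Rad21 at 48.1 RPKM in ST and 46.2 RPKM in NT. Among 15 measured large and atypical cadherins, which include the Fat, Celsr and calsyntenin genes, 0 were higher and 1 was lower. That 1, the desmosomal gene Dsc2 (chosen after its value was seen), had 87 counts in ST and 136 in NT with an interval of 0.610 to 1.06. Clstn1, a calsyntenin, was the most abundant at 178 RPKM in ST and 173 RPKM in NT. The summed ratio was 1.02 (1.006 to 1.03) for the listed large and atypical cadherins, 0.985 (0.970 to 1.001) for the catenin list and 1.02 (0.999 to 1.03) for the promoter-choice list. Over all listed genes the same sum gave 0.992 (0.991 to 0.992), itself below 1. The intervals of the catenin list, of the list with kinases and proteases and of the WAVE list held that ratio. For the WAVE list this was narrow, with an upper end of 0.9917 against 0.9916. The intervals of the large and atypical cadherins and of the promoter-choice list lay above it.

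Markers of several non-neuronal cell types were lower in the ST library, and their values stand here beside those of Cdh5, Cdh20, Cdh23 and Pcdh9. For each list below, the shares over all measured genes were 6.11% past 1.2-fold lower and 3.35% higher. Of 13 endothelial and mural markers, 10 were past 1.2-fold lower and 0 higher, with a median log2 ratio of -0.32. Their scaled counts summed to 6306 in ST and 7956 in NT. Cdh5, with a log2 ratio of -0.42, lay within their range of -0.45 to 0.21. In bulk tissue, fewer cells of a type and less RNA per cell cannot be told apart. Of 13 oligodendrocyte markers 7 were past 1.2-fold lower (median -0.31, scaled sums 110374 in ST and 137186 in NT). So were 5 of 10 microglial markers (median -0.24, 5132 in ST and 5963 in NT). Of 10 measured meningeal and fibroblast markers, 9 were (median -0.96, 1667 in ST and 3196 in NT over the 12 listed). Among these 10, Col6a1 (scaled counts of 42.7 in ST and 76.6 in NT), Ogn (37.1 and 90.8) and Foxc1 (49.4 and 53.4) met the minimum only through NT, where they were higher. The 9 include Col6a1 and Ogn, so this count and median are no support for a difference. Astrocyte markers had a median of -0.10 with 1 of 10 past the rule (scaled sums 100947 in ST and 105629 in NT), and 6 ependymal markers a median of 0.02 (4980 in ST and 4997 in NT). Neuronal markers had 0 of 8 past 1.2-fold (median -0.04; 92174 in ST and 94740 in NT), and SCN markers 1 higher and 1 lower of 11 (median -0.09; 30959 in ST and 30576 in NT). Only 8 of 10 chosen neuronal markers and 6 of 8 chosen ependymal markers were found by name. No marker that was found had 0 counts in either library. The part of these cell types in the lower values of Cdh1, Cdh5, Cdh15, Cdh20, Cdh23, Pcdh9, Pcdh24 and Pcdhb9 was not tested.

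**Figure D5:**
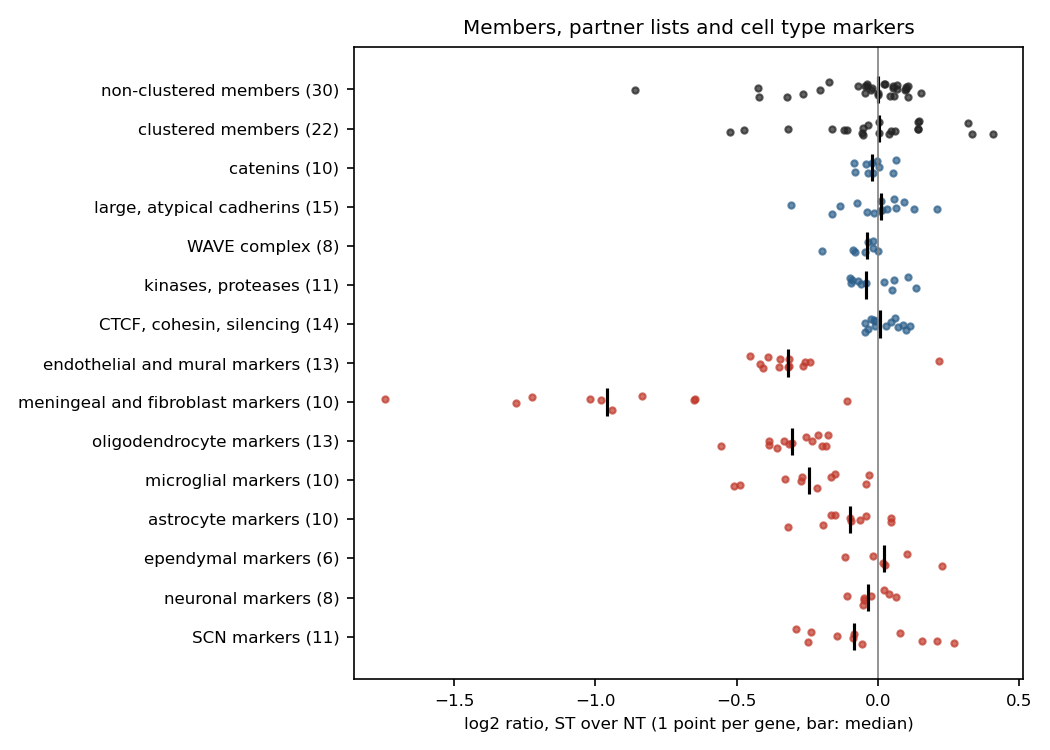
Log2 ratio of ST to NT for the measured genes of the members (black), 5 lists of partner genes (blue) and 8 lists of cell type markers (red), with the number of genes in brackets and a bar at each median. Members and partner lists centre near 0, whereas endothelial, meningeal, oligodendrocyte and microglial markers centre between -0.96 and -0.24. The meningeal list includes Col6a1, Ogn and Foxc1, which met the minimum only through the NT library.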

How the data were processed

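Libraries of polyadenylated RNA from 500 ng of RNA were sequenced; the tools CASAVA 1.8.2, TopHat 1.2 and DESeq and the build mm9 appear in the submitters' processing notes without role or order. How reads were counted is not given in the sources used here. Per the file headers, the authors deposited estimated counts. These estimated counts are fractional for 42.4% of genes in ST and 43.1% in NT. RPKM and RPM values were deposited by the authors, as were a fold change as a ratio, its log2 value and p-values. A further 3 columns of scaled means were not used. Strand use in counting is not given, so reads of antisense neighbours cannot be told apart.

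Counts were rounded and scaled by median-of-ratios size factors over all genes (0.890 for ST, 1.12 for NT). Intervals are exact Clopper-Pearson intervals (95%) of the part of a gene's summed counts that came from ST, turned into a ratio with the size factors. They reflect counting alone, and PCR copies are not told apart from molecules. Members, lists, thresholds and the alternatives given below were chosen with earlier results of these data known. Named are all measured non-clustered members, the 3 most abundant rows of each cluster, rows past 1.2-fold with an interval clear of 1, and the most abundant gene of each partner list, of which 1 is not reported here. Of the 60 members, 58 were found in GENCODE vM1, and all 58 overlapped it on the same strand. The scripts were tested on simulated data. Python 3.11.15, scipy 1.17.1 and edgeR 4.0.16 (TMM factors) were used.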

Additional observations from a re-analysis of the deposited data

How the results depend on the processing

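No paired analysis was possible because ST and NT are 1 library each; leaving out a replicate was likewise not possible. All 172 values of the 37 named members under other scalings, the pseudocount of 5, RPM values and whole counts stayed within their counting interval. Of them, 0 changed the sign of a ratio whose interval was clear of 1. The whole-count values among them could not differ, since that setting only drops genes with fractional counts, and they say nothing on robustness. Total-count scaling moved log2 ratios by at most 0.012. All 10 summed cluster ratios also stayed within theirs, including 1.01 for Pcdhb from members with whole counts, a setting chosen after seeing the data. Counts of members past 1.2-fold moved by construction of several settings. For all members, with 3 higher and 8 lower as reported, the higher count was 5 with a filter of 10, 0 with a filter of 200, 7 with no filter, 1 with whole counts only, and 1 with rows sharing reads summed, while the lower count was 2 with a filter of 200. At 1.5-fold it was 0 higher and 1 lower, at 2-fold 0 and 0, and with the interval also clear of 1 it was 0 and 4. For non-clustered genes, with 0 higher and 5 lower as reported, the higher count was 1 with a filter of 10 and 2 with no filter, and the lower count 2 with a filter of 200, 8 with no filter, 1 at 1.5-fold, 0 at 2-fold and 3 with the interval clear of 1. For clustered genes, with 3 and 3 as reported, it was 0 and 0 with a filter of 200, at 1.5-fold and at 2-fold, 1 and 1 with whole counts only, 0 and 1 with the interval clear of 1, 5 higher with no filter, and 1 higher with rows sharing reads summed. Of 86 group medians, 82 moved by less than the median half-width of the members' intervals. The others were type I cadherins at -0.20 with a filter of 10 or no filter, where Cdh1 enters, and at -0.18 with whole counts only, where Cdh4 drops out, and the other Cdh-named genes at -0.047 with a filter of 200, where Cdh23 drops out. Depth limits the ratio of Cdh23 to between 0.353 and 0.835, and that of Cdh2 to between 1.005 and 1.09.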

Other observations

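The authors' deposited table calls 0 of the 60 members at an adjusted p of 0.05, and its lowest adjusted p among them is 0.513, for Cdh1. At an unadjusted p of 0.05 the authors' deposited table holds 4 members, 6.67% of the 60 against 2.16% of all listed genes. They are Cdh1 (p = 0.00208 in the authors' deposited table), Cdh23 (0.0211), Pcdhb9 (0.0330) and Cdh5 (0.0418), all lower in ST. These values rest on 1 library per group, so no replicate stands behind them. Cdh2, Pcdha6, Cdh20, Pcdh9 and Pcdhga11 also had counting intervals clear of 1 but were not among the 4. The authors' values thus do not follow counting error alone.

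Of the measured partner genes, 6 had intervals clear of 1 while within 1.2-fold, and they are named after their values were seen. Over all measured genes, whatever the size of the ratio, 7.79% had an interval above 1 and 10.2% one below 1. By list, the share above 1 was at most 7.14%. The share below 1 was at most 10%, except for the WAVE list at 25%. Celsr3, a seven-pass cadherin of axon tract formation, had 3383 counts in ST and 3908 in NT (interval 1.04 to 1.14), and Trim28, a co-repressor of transcription, had 3604 in ST and 4252 in NT (1.02 to 1.12). On the lower side were Wasf2, a WAVE subunit, with 590 counts in ST and 855 in NT (0.783 to 0.968), Cyfip1, another WAVE subunit, with 1910 in ST and 2566 in NT (0.885 to 0.997), the kinase Fyn with 2000 in ST and 2690 in NT (0.885 to 0.995), and Pkp4, an armadillo protein, with 3370 in ST and 4511 in NT (0.901 to 0.986).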
